A study of Bos taurus with 12 samples.

Results

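Myosin light chains are the small calmodulin-like proteins that wrap the lever arm of the myosin heavy chain. The set described here holds 8 genes, MYL1, MYL2, MYL3, MYL4, MYLPF, MYL6, MYL6B and MYL9, taken by gene name from the 18436 genes of the deposited expression table, together with every m6A peak annotated to them. All 8 were in the table, 7 passed the filter on low values, and MYL3 did not. The cells were primary myoblasts from the longissimus dorsi muscle of newborn Qinchuan cattle, which the study's methods trace to a single animal, so the 3 replicates of a group were cultures and p-values measure the spread between these cultures. GM cells were proliferating myoblasts at 80% confluence in growth medium with 20% fetal bovine serum. DM cells were myotubes at 100% confluence after 4 days in differentiation medium with 2% horse serum. Both media were DMEM/F12 with the same antibiotics, and no gene was altered in either group. Each culture gave an input library, which measures mRNA, and a library of fragments pulled down with an antibody to N6-methyladenosine (m6A), a methyl mark on adenosines inside mRNA, for 12 libraries in all.

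Each myosin head carries an essential light chain, which stiffens the lever arm, and a regulatory light chain, which can be phosphorylated and tunes how the head engages actin. Skeletal muscle draws on fast forms (MYL1 and MYLPF), slow forms shared with the heart ventricle (MYL2 and MYL3) and an embryonic form shared with the atrium (MYL4). MYL6 is the essential chain of non-muscle and smooth muscle myosin, MYL9 is a regulatory chain of the same myosins, and MYL6B is found in both slow skeletal and non-muscle myosin.

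Expression is given as FPKM, the number of sequenced fragments scaled to exon length and to the mapped fragments of the library, which allows levels of different genes to be compared per length. Changes were tested with limma on log2(FPKM + 1) for the 12302 genes whose mean over the inputs reached 0.5 FPKM, and a gene was called when its unadjusted p was under 0.05 and its fold change over 1.5. Of the 7 tested light chain genes, 5 rose in DM (MYL1, MYL2, MYL4, MYLPF and MYL6B), against 4.9% of all tested genes, and 0 were called lower, against 6.97%. When Benjamini-Hochberg adjusted p under 0.05 was required with no limit on the fold, a rule added after the values were seen, limma called the same 5 higher, against 16.1% of tested genes, and MYL6 and MYL9 lower, against 26.7%. The median log2 fold change was 0.83 over the 7 genes and -0.05 over all tested genes, and rescaling each library to TPM moved the latter to 0.06. None of the 7 changed sign under TPM or under size factors.

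The GM cultures already held muscle transcripts. MYOG, a transcription factor of terminal differentiation, was at 197 ± 8.96 FPKM in GM and 243 ± 14.9 in DM (SD, n = 3 each), and the embryonic heavy chain MYH3 was at 273 ± 2.74 in GM. Of 10 myogenic markers, 3 rose (MEF2C, CKM and MYF6), against 4.9% of all tested genes. Another 4 fell (MYF5, MYOD1, PAX7 and ACTA1), against 6.97%. PAX7, at 1.08 FPKM in GM and 0.0624 in DM, passed the filter only through its GM values, so its direction was largely set by the filter. In such bulk libraries, fewer cells of a type and less RNA per cell cannot be told apart. Fibroblast markers summed to between 16067 and 16217 FPKM in GM and between 16961 and 18070 in DM. Of the 8, FAP was called higher, against 4.9% of all tested genes, and 0 were called lower, close to the 6.97%. COL3A1 (log2 fold change 0.39), DCN (0.33) and PDGFRA (0.26) were higher without being called, and the lowest change in the list was -0.07. Endothelial markers stayed under the filter, with sums of 0.331 to 0.497 FPKM in GM and 0.415 to 0.653 in DM. Of 2 adipocyte markers tested, PPARG fell (1.25 FPKM in GM and 0.482 in DM), against 6.97% of all tested genes, and PLIN1 was not called. Of those under the filter, FABP4 was higher in DM (0.106 FPKM in GM and 0.578 in DM), and ADIPOQ and LPL were lower.

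**Figure D1:**
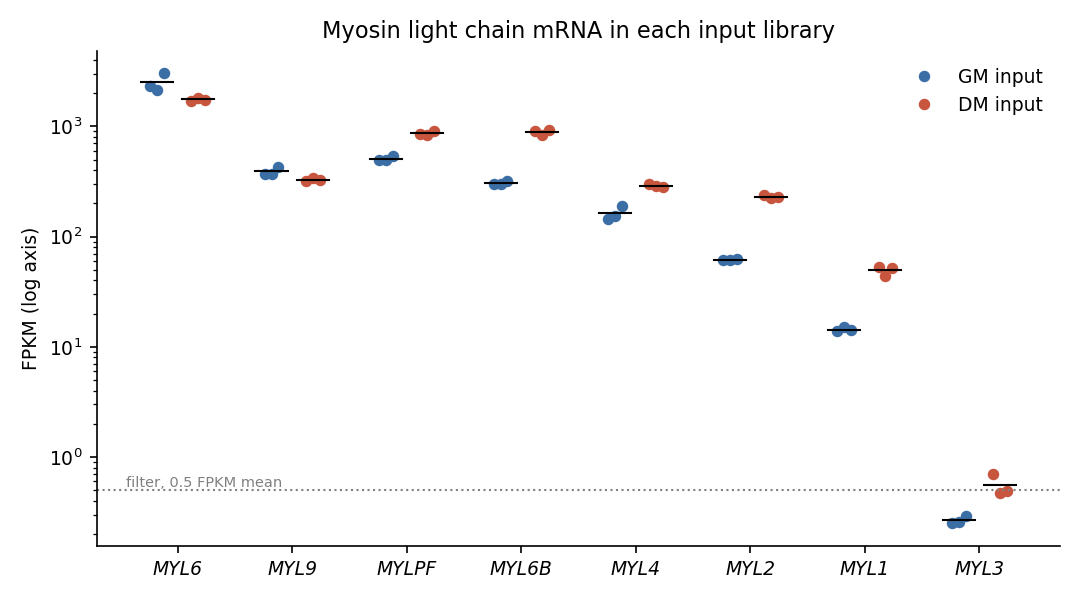
FPKM of the 8 light chain genes (log axis) in each of the 3 GM and 3 DM input libraries, points for libraries and bars for group means. MYL6 was the most abundant in every library, and MYL3 lay near the filter line at 0.5 FPKM. GM and DM points did not overlap for any of the 8 genes, but the share of all tested genes with such a separation was not counted. At a limma Benjamini-Hochberg adjusted p under 0.05 with any fold, 16.1% of all tested genes were higher and 26.7% lower. The separation is therefore not read as a trait of these genes.

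Among the regulatory chains, MYL2 had the largest change of the 7 tested genes. MYL2 (chromosome 17, 54706765 to 54714580, minus strand, ARS-UCD1.2) was at 61.3, 61.3 and 62.2 FPKM in the GM libraries and 236, 224 and 228 in the DM libraries. The GM values lay within 1 FPKM of each other and every DM value was above all of them. The log2 fold change was 1.88 (SE 0.045, 95% interval 1.78 to 1.98, limma with Benjamini-Hochberg adjusted p = 2e-07), a ratio of means of 3.72, which placed MYL2 at position 42 among all tested genes ordered by rise. MYL2 is also a ventricular gene, and the heart muscle markers were near 0. The 5 heart markers in the table summed to 0.574 to 0.834 FPKM in GM and 1.22 to 1.58 in DM. Only MYH6 of these passed the filter, and it was not called. TNNI3 was at 0.111 FPKM in GM and 0.0841 in DM, the only heart marker in the table that was lower. MYH6 (0.455 FPKM in GM and 0.724 in DM) and NPPB (0.0461 and 0.293) were higher in DM. So were MYL7 (0.0191 and 0.242) and MYBPC3 (0.033 and 0.0782). The part of heart-like expression in the value of MYL2 was not tested.

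MYLPF, the regulatory chain of fast skeletal fibres (chromosome 25, 26558869 to 26561866, plus strand), was the most abundant of the 3 regulatory members in both groups. MYLPF was at 497, 494 and 540 FPKM in GM and at 862, 837 and 901 in DM. The groups did not overlap. Its log2 fold change was 0.76 (SE 0.058, 95% interval 0.63 to 0.90, limma with Benjamini-Hochberg adjusted p = 2.3e-05), a ratio of means of 1.7, and it was lost when a fold over 2 was required. The ratio of MYL2 to MYLPF was 0.123, 0.124 and 0.115 in GM and 0.274, 0.268 and 0.253 in DM. The slow chain thus stayed the less abundant of the pair in all 6 libraries while its level relative to the fast chain was higher in every DM library.

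MYL9, the regulatory chain of smooth muscle and non-muscle myosin (chromosome 13, 65646954 to 65655870, plus strand), was lower in DM without being called. MYL9 was at 374, 370 and 430 FPKM in GM and 316, 339 and 325 in DM. All 3 DM values were below the lowest GM value, and GM replicate 3 stood above the other GM libraries. The log2 fold change was -0.26 (SE 0.068, 95% interval -0.41 to -0.10, limma with Benjamini-Hochberg adjusted p = 0.017). This is under the 1.5-fold limit, so MYL9 was not called. The adjusted p rose to 0.10 when FPKM was rescaled to TPM, with a log2 fold change of -0.13, and to 0.079 with size factors. It was 0.07 without DM replicate 1 and 0.055 without DM replicate 3.

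Smooth muscle markers were set beside MYL9. Of the 9 tested markers of smooth muscle and pericytes, CSPG4, a pericyte proteoglycan, rose and SMTN, a smooth muscle cytoskeletal protein, fell. Over all tested genes, 4.9% were called higher and 6.97% lower. The 10 markers in the table summed to between 3736.5 and 4296.5 FPKM in GM and between 3138 and 3362 in DM. Of the 9, 8 had an unadjusted limma p under 0.05, in both directions, but the share of all tested genes under this limit alone was not counted. With limma and the stricter Benjamini-Hochberg adjusted p under 0.05 at any fold, 16.1% of all tested genes were higher and 26.7% lower. ACTA2 (log2 fold change -0.39), TAGLN (-0.25), CNN1 (-0.30) and ACTG2 (-0.21) were lower and PDGFRB (0.24) and MCAM (0.39) higher, none of them called. ACTA2 alone was at 2241 FPKM in GM and 1713 in DM, which is most of the difference in the sum. MYH11, the smooth muscle heavy chain, was at 0.282 FPKM in GM and 0.529 in DM, under the filter. The part of smooth muscle-like cells in the value of MYL9 was not tested.

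Of the essential chains, MYL1 had the largest change. MYL1, the essential chain of fast fibres (chromosome 2, 98099886 to 98125989, minus strand), was at 13.95, 15.03 and 14.07 FPKM in GM and at 53.5, 44.2 and 52.3 in DM. Every DM library was above all GM libraries, with DM replicate 2 the lowest of the 3. The log2 fold change was 1.73 (SE 0.078, 95% interval 1.55 to 1.91, limma with Benjamini-Hochberg adjusted p = 1.5e-06), a ratio of means of 3.48. The gene makes a long and a short protein from alternative promoters, which the gene table adds together.

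MYL6B (chromosome 5, 57165321 to 57168025, minus strand) combined a high level with a large change. It was at 299, 298 and 317 FPKM in GM and at 918, 842 and 934 in DM. The groups stood far apart, and DM replicate 2 was the lowest DM library here as for MYL1. The log2 fold change was 1.56 (SE 0.058, 95% interval 1.42 to 1.69, limma with Benjamini-Hochberg adjusted p = 6.3e-07), a ratio of means of 2.95. With a mean of 898 ± 49.1 FPKM in DM (SD, n = 3), MYL6B was among the 64 most abundant genes in every DM library, and among the 218 most abundant in every GM library.

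MYL4, the embryonic and atrial essential chain (chromosome 19, 46285322 to 46300142, plus strand), rose less. MYL4 was at 145, 155 and 190 FPKM in GM and at 299, 285 and 282 in DM. GM replicate 3 was again the highest of its group, and no GM value reached the lowest DM value. The log2 fold change was 0.83 (SE 0.093, 95% interval 0.61 to 1.04, limma with Benjamini-Hochberg adjusted p = 0.00022), a ratio of means of 1.77, and like MYLPF it was lost when a fold over 2 was required. The ratio of MYL1 to MYL4, the fast over the embryonic chain, was 0.0962, 0.0968 and 0.0742 in GM and 0.179, 0.155 and 0.186 in DM.

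MYL3, the essential chain of slow fibres and of the ventricle (chromosome 22, 52638016 to 52644842, plus strand), was close to the limit of measurement. MYL3 was at 0.251, 0.257 and 0.292 FPKM in GM and at 0.703, 0.473 and 0.495 in DM. The DM values were all higher than the GM values, but the mean over the 6 libraries was 0.412 FPKM, under the filter. With no filter the log2 fold change on the log2(FPKM + 1) scale, which understates changes of such low genes, was 0.29, and MYL3 was not called. Its slow regulatory partner MYL2 thus stood at 229 FPKM in DM against 0.557 for MYL3.

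MYL6, the essential chain of non-muscle and smooth muscle myosin (chromosome 5, 57161869 to 57164985, minus strand), was among the 10 most abundant genes in each of the 6 libraries. MYL6 was at 2350, 2138 and 3038 FPKM in GM and at 1715, 1826 and 1739 in DM. The DM values lay close together, below the lowest GM value, whereas GM replicate 3 stood well above the other GM libraries. The log2 fold change was -0.50 (SE 0.12, 95% interval -0.77 to -0.22, limma with Benjamini-Hochberg adjusted p = 0.011), under the 1.5-fold limit. It was called lower when GM replicate 2 was left out (log2 fold change -0.60), and it was -0.35 without GM replicate 3. MYL6 lies 335 bases from MYL6B on the same strand, and whether reads of one were counted to the other was not tested.

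**Figure D2:**
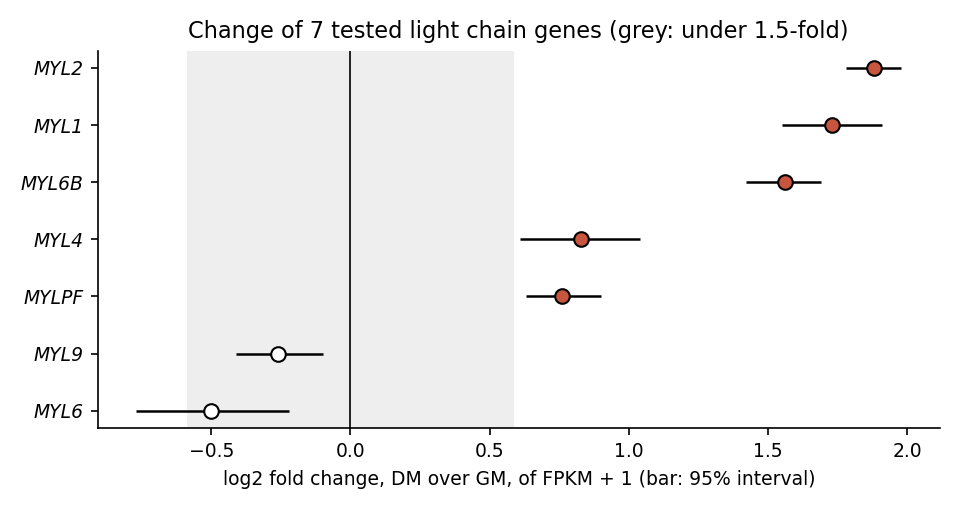
Log2 fold change of FPKM + 1, DM over GM, for the 7 tested light chain genes, with 95% intervals from limma (filled points, called; open points, not called; grey band, changes under 1.5-fold). MYL2, MYL1 and MYL6B form the upper group at 1.56 to 1.88, MYL4 and MYLPF lie at 0.83 and 0.76, and MYL9 and MYL6 lie below 0.

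The order of levels differed between the groups. In GM it ran MYL6, MYLPF, MYL9, MYL6B, MYL4, MYL2, MYL1 and MYL3, and no neighbours overlapped between libraries. In DM, MYL6B stood next to MYL6 and above MYL9, giving MYL6, MYL6B, MYLPF, MYL9, MYL4, MYL2, MYL1 and MYL3. The DM values of MYL6B and MYLPF overlapped, with means of 898 and 867 FPKM, so their order is not resolved. MYL9 and MYL4 were close in DM, with a ratio of means of 1.13, the lowest MYL9 library at 316 FPKM and the highest MYL4 library at 299.

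In the essential pool MYL6 held a smaller share in DM and MYL6B a larger share. The 5 essential chains summed to 2807, 2607 and 3559 FPKM in the GM libraries and to 2987, 2998 and 3007 in the DM libraries. The group means, 2991 ± 502 and 2997 ± 10.3 (SD, n = 3), were close, but GM replicates 1 and 2 lay below every DM library and GM replicate 3 above them. MYL6 held 83.7 ± 1.7% of this sum in GM and 58.7 ± 1.9% in DM. MYL6B held 10.3 ± 1.3% in GM and 30 ± 1.6% in DM, MYL4 held 5.48 ± 0.42% and 9.63 ± 0.34%, and MYL1 held 0.49 ± 0.091% and 1.67 ± 0.17%. In every library the fast chain MYL1, the main essential chain of adult fast muscle, was thus a small share, and MYL3 held 0.009% in GM and 0.0186% in DM.

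The 3 regulatory members had a higher sum in DM. The 3 member chains summed to 963 ± 60 FPKM in GM and 1423 ± 28 in DM, with no overlap between libraries. MYLPF held 53 ± 0.59% in GM and 60.9 ± 1.1% in DM, MYL2 held 6.41 ± 0.33% and 16.1 ± 0.53%, and MYL9 held 40.6 ± 0.92% and 23 ± 1%. Over the 8 members, the 5 chains of sarcomeric myosin (MYL1, MYL2, MYL3, MYL4 and MYLPF) held 19.1 ± 1.5% of the summed FPKM in GM and 32.5 ± 0.73% in DM. MYL6B, found in both slow skeletal and non-muscle myosin, was left out of these 5. It was at 304 FPKM in GM and 898 in DM, so counting it would raise the sarcomeric share in both groups. The non-muscle regulatory chains MYL12A (592 FPKM in GM and 641 in DM) and MYL12B are not members and were left out of both sums. Counting them would lower each of the regulatory and sarcomeric shares. All shares given are a description of levels per length, with no test.

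**Figure D3:**
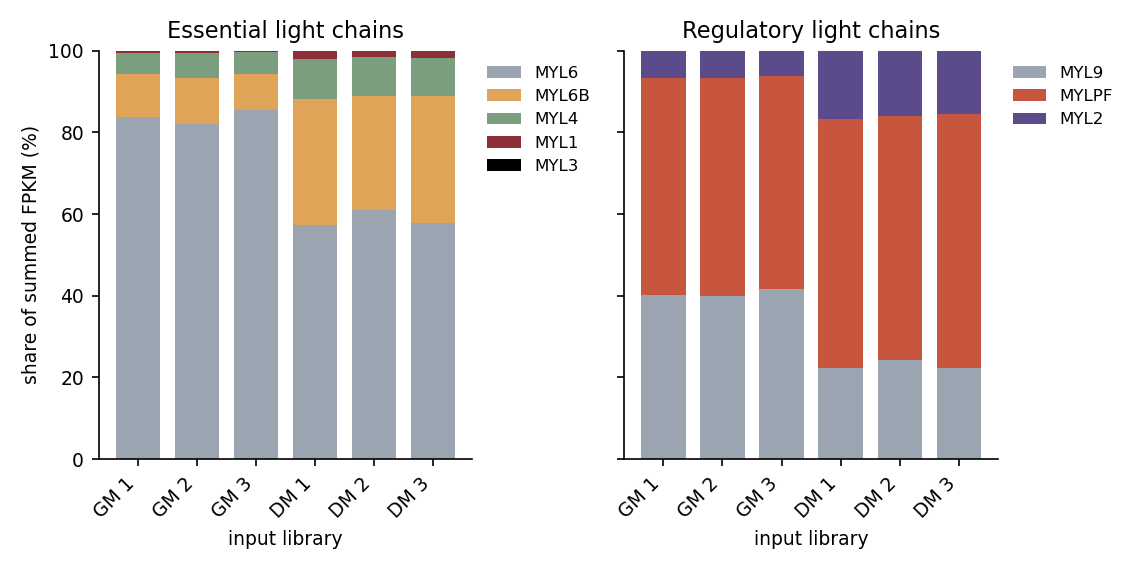
Share of each gene (%) in the summed FPKM of the 5 essential chains (left) and the 3 regulatory chains (right), 1 bar for each of the 6 input libraries. The MYL6 share is 82 to 85.4% in the GM bars and 57.4 to 60.9% in the DM bars, and the MYL9 share is 40 to 41.6% in GM and 22.4 to 24.2% in DM.

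The light chains bind to heavy chains. Of 14 myosin heavy chain genes listed, 7 passed the filter, and 4 of these 7 tested genes rose, against 4.9% of all tested genes. The number called lower was 0, close to the 6.97% of all tested genes. On the log2(FPKM + 1) scale the largest rises were those of MYH8, the perinatal heavy chain (log2 fold change 1.74), MYH3, the embryonic heavy chain (1.27), and MYH2, a fast adult heavy chain (1.11). This scale understates changes of low genes. The ratio of means was 9.37 for MYH2, 7.81 for MYH8 and 2.42 for MYH3. MYH2, at 0.16 FPKM in GM, passed the filter only through its DM values, so its direction was largely set by the filter. Of the 4 that rose, MYH3 had by far the highest level, at 666, 670 and 642 FPKM in DM against 275, 274 and 270 in GM, whereas MYH2 averaged 1.5 FPKM in DM and MYH7, the slow heavy chain that pairs with MYL2 and MYL3 and that also rose, averaged 24.5. The non-muscle heavy chains MYH9 and MYH10, which carry MYL6 and MYL9, were tested and not called. MYH9 was at 353 ± 3.39 FPKM in GM, above MYH3 in every GM library, and at 352 ± 5.21 in DM, with a log2 fold change of -0.01 (SE 0.044). MYH10 was at 253 ± 6.35 FPKM in GM and 260 ± 10.6 in DM (SD, n = 3), with a log2 fold change of 0.04 (SE 0.05). The adult fast chains MYH1 and MYH4 were under the filter.

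Of the other light chain genes, MYL12A and MYL12B were tested and 0 were called with limma, nor did either reach an unadjusted p under 0.05 (0.07 and 0.85). These are closely similar non-muscle regulatory chains that lie side by side on chromosome 24, so the split of reads between them is uncertain. MYL12A was at 592 ± 32.7 FPKM in GM and 641 ± 9.56 in DM, above MYL9 in every library. MYL7, the atrial regulatory chain, was under the filter, at 0.0191 FPKM in GM and 0.242 in DM.

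Of 9 tested genes of the thick filament and of myosin assembly, 4 rose with limma, against 4.9% of all tested genes. The number called lower was 0, against 6.97%. All 9 had an unadjusted limma p under 0.05, with log2 fold changes of -0.30 to 1.96. How many of all tested genes pass that p alone was not counted. At the stricter limma Benjamini-Hochberg adjusted p under 0.05 with any fold, 16.1% of all tested genes were higher and 26.7% lower. On the log2(FPKM + 1) scale the largest rises were MYOM2, an M-band protein that crosslinks thick filaments (log2 fold change 1.96), SMYD1, a muscle methyltransferase needed for thick filament assembly (1.44), and MYBPC1, the slow myosin-binding protein C (1.25). MYBPC1 had the largest ratio of means, 47.4 against 4.25 for MYOM2 and 3.23 for SMYD1. It was at 0.0309 FPKM in GM and 1.46 in DM. MYBPC1 thus passed the filter only through its DM values, so its direction was largely set by the filter. Of 14 tested genes that phosphorylate light chains or remove the phosphate, 0 were called in either direction with limma. Over all tested genes, 4.9% were called higher and 6.97% lower, so 0 of 14 is close to these shares. The log2 fold changes lay between -0.57 and 0.35, and 6 of the 14 had an unadjusted limma p under 0.05. The share of all tested genes under 0.05 without a fold limit was not counted. Given the shares of 16.1% and 26.7% at the stricter adjusted p, 6 of 14 is not read as a trait of this list. MYLK2, the kinase of skeletal muscle light chains, was under the filter, at 0.118 FPKM in GM and 0.331 in DM.

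For each called member, the 3 tested genes with the most similar profile over the 6 input libraries were found, by the root mean square difference of log2(FPKM + 1) after centring each gene on its own mean. For MYL1 these were ACTN2, ZNF106 and STEAP1, with differences of 0.05 to 0.065. ACTN2, the muscle alpha-actinin of the Z-disc, was at 13.1 FPKM in GM and 48.6 in DM, close to MYL1 in level as well. For MYL2 they were SERPINF1, PLPP3 and LMOD3 (0.041 to 0.043), the last a nucleator of thin filament actin. For MYL4 they were LRP1, TNNC2 and GMPR (0.042 to 0.071), where TNNC2 is the calcium-binding troponin of fast fibres, at 371 FPKM in GM and 664 in DM. For MYLPF they were a gene with no symbol (ENSBTAG00000054394), PTPN5 and DDAH2 (0.023 to 0.034). For MYL6B they were RAP1GAP2, CSRP2 and MTURN (0.039 to 0.067). With 2 groups of 3 libraries, a small difference mostly says that the change between the groups was of the same size.

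For m6A the files hold a list of peaks for each group. Each list holds a single value per peak for the 3 cultures of its group, and no replicate error can be attached to a peak. Fold enrichment is the authors' ratio of immunoprecipitated over input signal in the peak. In the GM list, 6 of the 8 light chain genes had a peak (5 of the 7 tested, against 70.9% of all tested genes). In the DM list, 4 of 8 had a peak (4 of the 7 tested, against 78.7%). With 7 genes these shares are a description only.

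MYL1 and MYLPF had no peak in either list, as did 19.0% of all tested genes. All 7 tested members averaged at least 10 FPKM, and of all 5365 such genes 18.1% had no peak. MYLPF, at 867 FPKM in DM, was the most abundant member without a peak. The nearest peaks to it, 170 bases away on the opposite strand, were annotated to SEPT1, a gene at 0.0517 FPKM, with fold enrichments of 12 in GM and 13.8 in DM.

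Of the 3 light chain genes with a single peak in each list, MYL9 differed most. Its peak had the same 5 exon blocks in both lists (65647373 to 65655870, 1229 exonic bases), running from near the start of the gene to its 3' end. The fold enrichment was 5.59 in GM and 3.59 in DM, a log2 ratio of -0.64, that is 1.56 times lower in DM. This passed the limit of 1.5 that defines a change in m6A here, as 10.8% of the 10239 pairs of 1 GM and 1 DM peak did in this direction. It did not pass a limit of 2. The label of the peak in the lists is 5' UTR, although its largest block, 794 bases, is the last one.

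MYL6 and MYL2 had peaks at the 3' end in both lists. The MYL6 peak was labelled 3' UTR and had a fold enrichment of 2.3 in GM (231 exonic bases in 2 blocks) and 3.14 in DM (462 bases in 4 blocks). The log2 ratio was 0.45, under the limit, and 0 of the 3 light chain pairs passed it upwards, against 14.2% of all pairs. The MYL2 peak, also labelled 3' UTR, had a fold enrichment of 2.61 in GM and 2.58 in DM, a log2 ratio of -0.02. Its extent differed, with 204 exonic bases in a single block in GM and 611 bases in 5 blocks in DM, so the fold enrichments cover unequal regions, as they do for MYL6. The input level of MYL2 was 3.72 times higher in DM, and whether expression affects the called length was not tested.

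MYL4 did not form a single pair. In GM 1 peak covered the gene from its first to its last base (840 exonic bases in 7 blocks, fold enrichment 3.83, labelled 5' UTR). In DM there were 2 peaks on it, the first labelled 5' UTR with a fold enrichment of 1.54 (510 bases) and the other labelled 3' UTR with 1.87 (211 bases). Against the GM peak the log2 ratios were -1.31 and -1.03. Both values are lower than for MYL9. They are not counted as pairs because 2 DM peaks meet the same GM peak, and they would count as lower if every overlapping pair were taken. The first of them shares 510 of the 840 exonic bases of the GM peak. MYL4 rose in the input libraries, whereas MYL9 was lower there.

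MYL6B and MYL3 had a peak in the GM list only. The MYL6B peak was short and weak, with 61 exonic bases inside the gene and a fold enrichment of 1.22, higher than that of only 0.593% of the GM peaks. The MYL3 peak was the reverse, with a fold enrichment of 24.0 over 1018 bases, higher than 99.2% of the GM peaks. It lies on a gene at 0.267 FPKM in GM, and its log10 p of -5.99 was the weakest of the 11 light chain peaks. GM peaks on genes under 0.5 FPKM had a median fold enrichment of 6.53, against 2.96 on genes at or above it. The MYL3 peak was labelled 3' UTR and ran from 52643825 to 52644842, past the end of the transcript named for it in the list, at 52644073. For neither gene does a missing entry in the DM list show that the mark was absent.

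**Figure D4:**
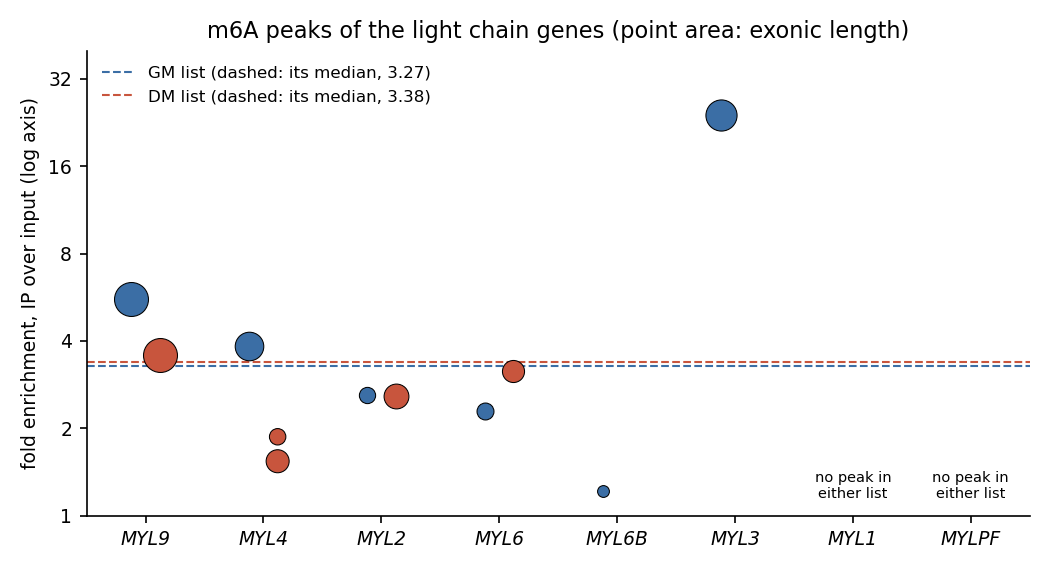
Fold enrichment of immunoprecipitated over input signal (log axis) of each m6A peak of the light chain genes, point area growing with exonic length, with dashed lines at the list medians of 3.27 (GM) and 3.38 (DM). The MYL9 and MYL4 points are lower in DM, the MYL6 point is higher, and MYL3 stands apart at 24.0 in GM with no DM point.

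Most of the peaks took in the 3' end of the gene. Of the 6 GM peaks on light chain genes, 5 ended on the last base of the gene as the table gives it, as did 4 of the 5 DM peaks. Among all peaks on genes of the table, 22.3% did so in GM and 30.6% in DM. The GM peak of MYL4 and the MYL9 peaks span most of the gene, so their ends do not place the mark at the 3' end. The shares over all peaks were not matched for gene length or for the number of peaks per gene. The exceptions were the MYL6B peak and the first DM peak of MYL4.

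**Figure D5:**
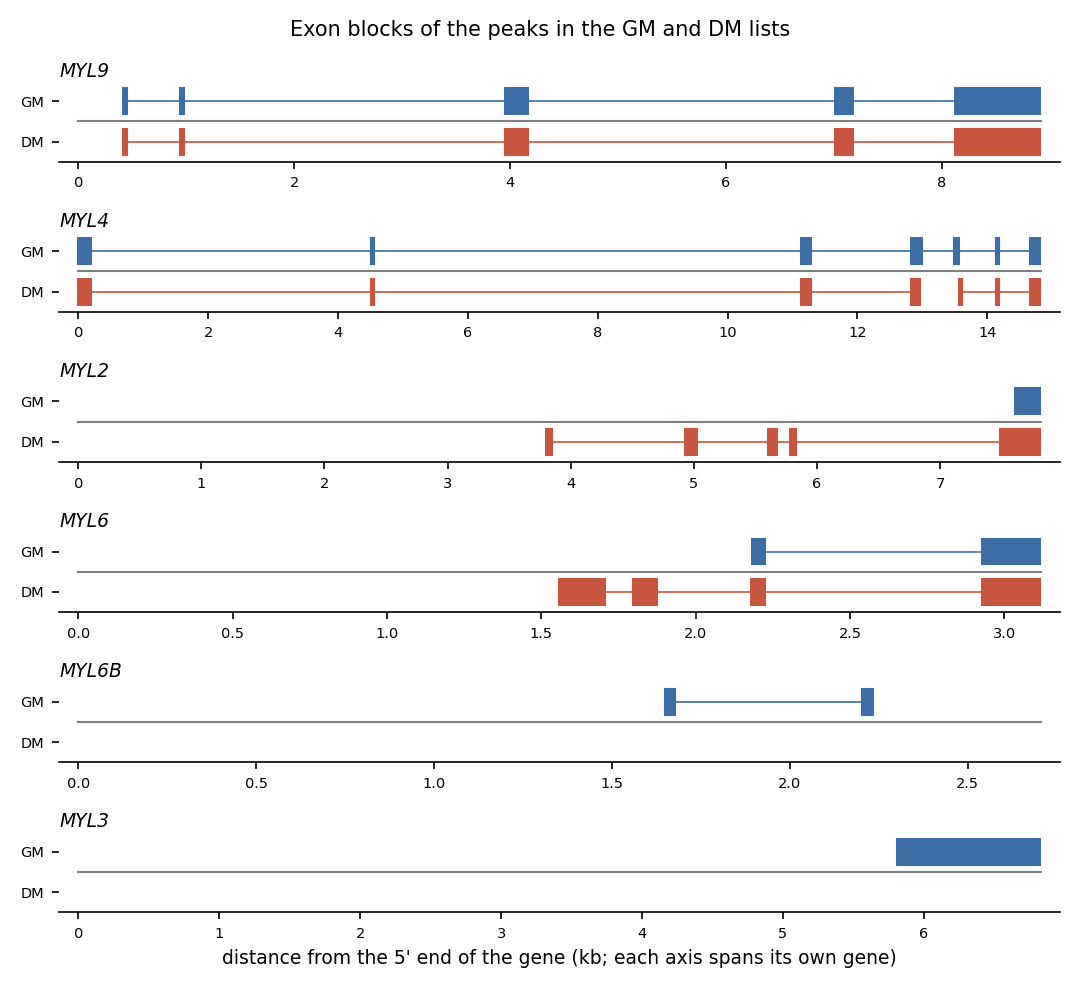
Exon blocks of the peaks along 6 light chain genes, as distance in kilobases from the 5' end of each gene (upper row GM, lower row DM, thin lines join blocks of 1 peak, blocks too short to see are drawn wider). The blocks of MYL9 are the same in both lists, those of MYL2 and MYL6 extend further from the 3' end in DM, and MYL6B and MYL3 have none in DM.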

How the data were processed

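Input libraries from poly(A) RNA were strand-specific. Per the study's methods, the authors aligned reads with HISAT2 to ARS-UCD1.2 and deposited FPKM from StringTie for the 6 inputs. The authors called peaks with exomePeak and deposited 1 list per group. How the libraries of a group were combined is not given in the sources used here. The authors deposited for each peak a fold enrichment (a linear ratio of IP over input), an unadjusted p-value and the log10 of p and of the false discovery rate. The submitters' processing notes also name cutadapt, fastp, HOMER and ChIPseeker. No read counts come with the gene table, so the number of reads behind each gene is unknown and precision rests on 3 libraries per group. The paper gives the total reads of each library. Summed FPKM was 415740.2 to 434458.3 in GM and 386436.5 to 390826.9 in DM.

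The members, gene lists and tests were chosen with earlier results of these data known. Tests used R 4.3.3 with limma 3.58.1 (variance trend, pseudocount 1). The study used edgeR on counts, which were not used here, and its thresholds were kept. Peaks were paired in Python 3.11.15 (pandas 2.3.3, numpy 2.4.6) when their exon blocks shared 1 base or more on a strand, and figures drawn with matplotlib 3.10.9. Both scripts were tested on simulated data. Genes named are all 8 members, the 3 genes most alike to each called member, and of each list the 3 largest rises and falls among those called, and cell type markers. Other genes, namely MYH1, MYH4, MYH7, MYH9, MYH10, MYL7, MYL12A, MYL12B, MYLK2 and SEPT1, were named after their values were seen. Alternatives covered the pseudocount, the filter, the scaling, the trend, thresholds, a replicate block, each library left out and stricter peak and overlap rules. No sequence is printed, since no genome was used here.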

Additional observations from a re-analysis of the deposited data

How the results depend on the processing

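Over 17 alternatives, each of the 7 tested light chain genes kept its direction. The number called higher was 5 in all of them except a fold over 2, where it was 3 (MYL4 and MYLPF were lost). The number called lower was 0, except 2 with Benjamini-Hochberg adjustment and any fold (MYL6 and MYL9), and it ranged from 0 to 1 when single libraries were left out (MYL6 without GM replicate 2). Over all tested genes, 603 were called higher and 858 lower, which became 970 higher with TPM, 232 and 275 with a fold over 2, and 1980 and 3288 with adjustment and any fold. The higher calls were 41.3% of all calls, 55.1% with TPM and 48.7% with size factors. Same-numbered GM and DM libraries did not deviate together (r = -0.08, -0.12 and -0.21), so the numbers were not taken to pair them, and the replicate block gave 5 members higher and 0 lower. Of light chain peak pairs, 1 was lower in DM, 2 when each peak had to share 50% of its exonic length (MYL4 is gained, and the MYL2 pair drops out and has no value) or with the mean of all peaks of a gene weighted by length (added after seeing the data), 3 with every overlapping pair (MYL9 and the MYL4 peaks) and 0 with a ratio over 2. Requiring a fold enrichment of at least 2 left 5 members with a GM peak and 3 with a DM peak. Leaving out single libraries kept the share of MYL6 in the essential pool at 82.9 to 84.5% in GM and 57.6 to 59.4% in DM, and that of the 5 sarcomeric chains at 18.4 to 19.9% and 32.2 to 32.9%. With 1 value per group, no m6A difference could be set against replicate error.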
